A study of Mus musculus with 8 samples.

Results

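The guanylate-binding protein (Gbp) genes are described here: Gbp2, Gbp2b, Gbp3, Gbp4, Gbp5, Gbp6, Gbp7, Gbp8, Gbp9 and Gbp10. They were taken by symbol from the deposited table, in which each of the 10 has 1 row among 12964 genes. The table holds RNA sequencing values of 8 libraries from the mouse mammary tumour line PyMT, of genotype WT, whose cells come from primary mammary tumours with polyoma middle T as the oncogene. The cells were sorted by FACS on the surface protein CD90 (gene Thy1), and 2 libraries, lettered A and B, stand for each of 4 groups: CD90pos with IFNg, CD90neg with IFNg, CD90pos control and CD90neg control. IFNg was given at 10 IU/ml for 24 h, and all cells were kept in a medium with low serum, insulin and EGF. The labels do not say what A and B stand for, nor whether libraries of a group come from separate cultures or tumours, so the p-values measure the spread between these libraries, which may be technical. Where a test leaves the letter out, this spread includes the difference between A and B.

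Guanylate-binding proteins are large GTPases of the dynamin superfamily that interferon-gamma induces in most cell types. They assemble on the membranes of intracellular bacteria and of parasite vacuoles, and they help to open these and to start inflammasomes. Interferon-gamma signals through its receptor and the kinases Jak1 and Jak2 to promoters with GAS and ISRE elements, and Irf1 and related factors bind ISRE elements. The comparisons ask how IFNg changed expression in the CD90pos and CD90neg tumour cells.

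The 10 genes form a pair of clusters in the mouse genome (GRCm38, gene models of GENCODE vM21). Gbp5, Gbp7, Gbp3, Gbp2b and Gbp2 lie in this order on the plus strand of chromosome 3, with Gbp2b at chr3:142594847-142619179 and Gbp2 at chr3:142620602-142638008, 1422 bases further on. Gbp8, Gbp9, Gbp4, Gbp10 and Gbp6 lie on the minus strand of chromosome 5, where Gbp8 (chr5:105014150-105139540), Gbp9 (chr5:105077630-105139539) and Gbp4 (chr5:105115767-105139586) overlap, while Gbp10 is at chr5:105215699-105239533 and Gbp6 at chr5:105270702-105293698. All 10 are annotated as protein coding. The chromosome 5 copies Gbp10 and Gbp6 are partly near-identical. Of the 50-base words in the exons of Gbp10, 84.1% also occur in another gene, and 73.3% occur in Gbp6. The share in another gene is 70.7% for Gbp6, 18.1% for Gbp8, 12.7% for Gbp7 and at most 8.05% for the other members. Part of it is exon overlap, with Gm43302 for Gbp6 and Gbp10 and with Gm43802 for Gbp7. Of the words of Gbp6, 65.0% occur in Gm43302 and 45.9% in Gbp10, and of those of Gbp7, 10.5% occur in Gm43802. The split of reads between Gbp6, Gbp10 and the overlapping predicted gene Gm43302 is therefore uncertain.

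Promoter windows of 300 bases (250 before the transcription start and 50 after it, RefSeq, GRCm38.p6) were given for 5 of the 10 members, all on chromosome 3. The letters of an ISRE, GAAANNGAAA on either strand, occur in a window of all 5 genes, and in a window of 3.99% of the 27025 genes with a window. By window it is 3.44% of the 32851 windows of all genes. The 5 genes have 6 windows, and the matches of a gene all lie in the same window. The stretch around each match is printed because each of these genes was higher with IFNg within each letter. Each stretch is the plus strand of the reference genome, with the ISRE letters in capitals, and Gbp3 has 2 matches that overlap.
Gbp5, chr3:142496744-142496803: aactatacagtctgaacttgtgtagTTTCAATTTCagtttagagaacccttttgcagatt
Gbp7, chr3:142530258-142530317: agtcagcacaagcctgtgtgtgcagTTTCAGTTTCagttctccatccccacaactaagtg
Gbp3, chr3:142559974-142560039: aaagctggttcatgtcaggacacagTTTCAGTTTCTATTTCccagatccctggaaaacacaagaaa
Gbp2b, chr3:142594685-142594744: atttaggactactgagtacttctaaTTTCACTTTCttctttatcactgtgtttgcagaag
Gbp2, chr3:142620579-142620638: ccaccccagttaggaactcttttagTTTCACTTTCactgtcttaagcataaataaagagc
The capitals of Gbp2b and Gbp2 are the same 10 letters, and so are those of Gbp7 and the first match of Gbp3. The letters of a GAS, TTCNNNGAA, which reads the same on both strands, occur 2 times in a window of Gbp5 and 2 times in one of Gbp7. They occur in a window of 9.55% of all genes and in 8.30% of all windows. They are not in the windows of Gbp3, Gbp2b and Gbp2. A match describes the letters and is no evidence of a bound site, and the windows come from the reference genome, not from these cells.

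**Figure D1:**
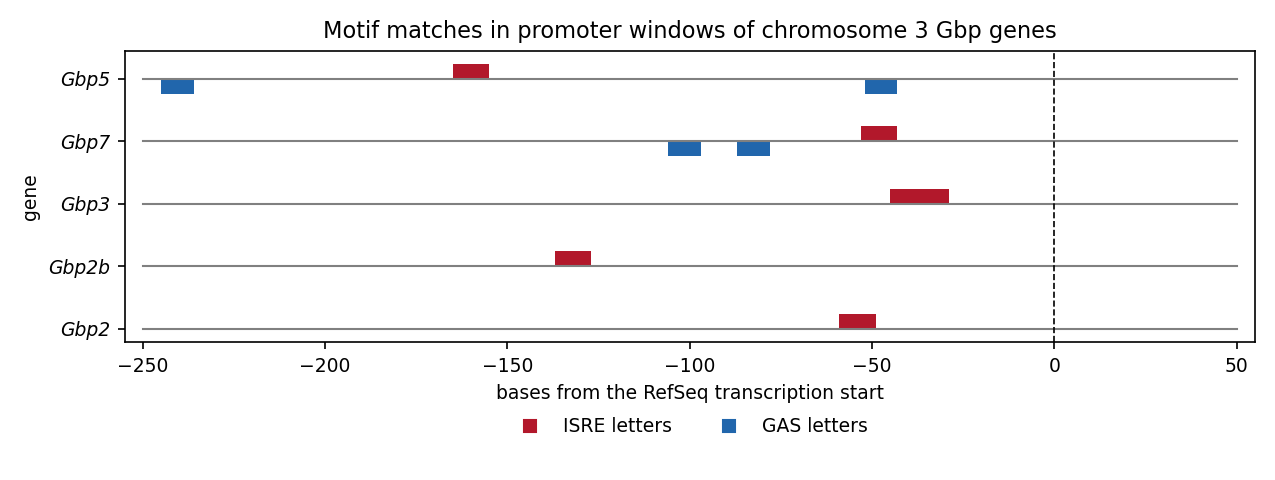
Positions of the ISRE letters (red, above each line) and GAS letters (blue, below each line) in the promoter windows of the 5 chromosome 3 genes, in bases from the RefSeq transcription start (dashed line). Each gene has ISRE letters, and Gbp5 and Gbp7 also have GAS letters, 2 matches each.

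Values are normalized reads, and 31243646 to 40899909 whole reads per library could be recovered from them. A count of 0 reads allows up to 3 reads, or 2.55 to 3.37 normalized reads, counting error only. Thy1, the gene of the sort marker, was at 2195 and 3936 normalized reads in CD90pos IFNg, 55.7 and 65.5 in CD90neg IFNg, 283 and 1495 in CD90pos control and 20.6 and 16.6 in CD90neg control. All 9 epithelial markers listed have a row, with summed levels of 226008 to 911854 normalized reads. Of 16 leukocyte markers 5 have a row, and 11, Ptprc and Cd3e among them, have none; 8 of 9 fibroblast and 2 of 7 endothelial markers have a row. Libraries of the same letter resembled each other: in each group the summed leukocyte markers were higher in A (935 to 2051) than in B (178 to 225). In each group all 9 epithelial markers were lower in A than in B, with sums of 226008 to 510576 in A and 761638 to 911854 in B. Among them, the basal keratin Krt5 was at 94.7 to 393 in A and 1131 to 13452 in B.

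Every Gbp gene was at a higher level with IFNg than without it in both sorted populations and in both letters. The members together took 0.943% and 0.826% of all reads in CD90pos IFNg and 0.837% and 0.928% in CD90neg IFNg, against 0.00217% and 0.00702% in CD90pos control and 0.00552% and 0.00463% in CD90neg control. By limma on log2(normalized reads + 1), with Benjamini-Hochberg adjustment over 12962 genes and calls at an adjusted p under 0.05, 9 of 10 members rose with IFNg in CD90pos cells, where 2.11% of all genes did, and 6 of 10 in CD90neg cells, where 0.633% of all genes did. The median log2 difference over the 10 members was 7.91 in CD90pos and 7.55 in CD90neg cells, against 0.01 and -0.02 over all genes tested. With the letter as a block, 10 of 10 rose in each population, against 14% of all genes in CD90pos and 3.48% in CD90neg. In bulk RNA, fewer cells of a type and less RNA per cell cannot be told apart.

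**Figure D2:**
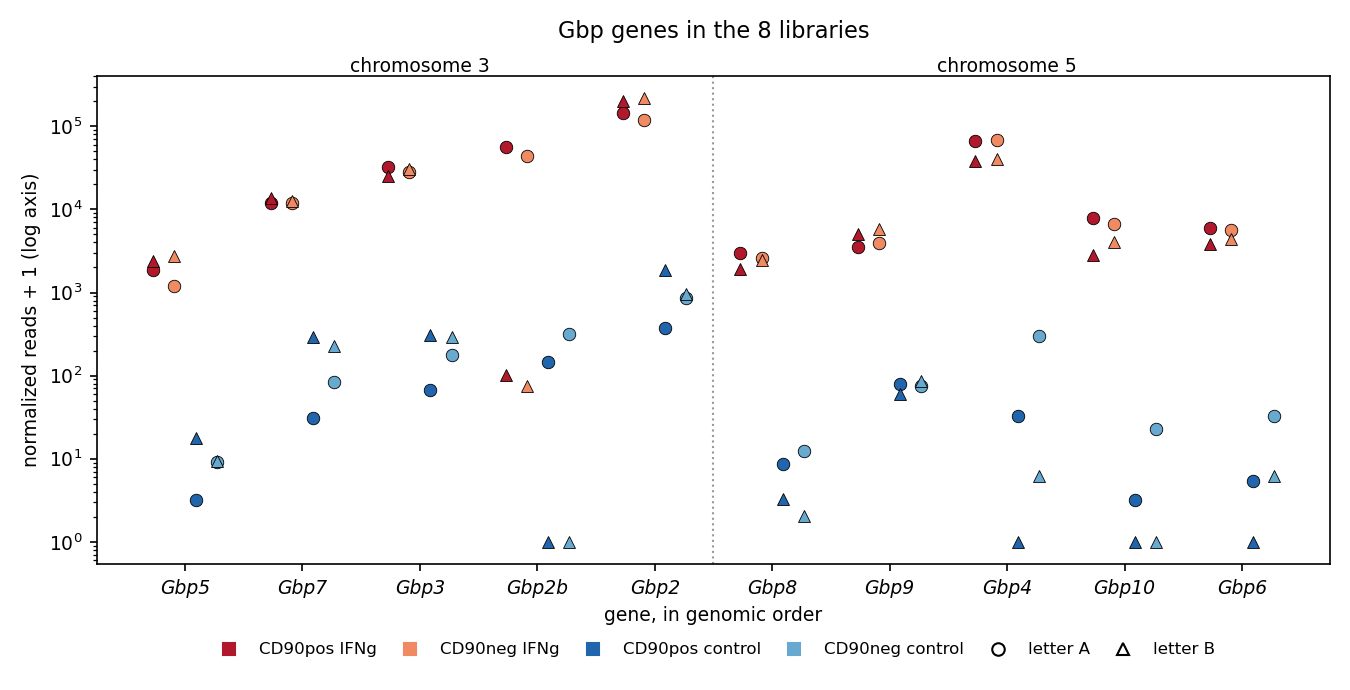
Normalized reads + 1 (log axis) of each Gbp gene in the 8 libraries, coloured by group, with circles for letter A and triangles for letter B. The IFNg libraries lie above the control libraries of the same letter for each gene, and for Gbp2b the IFNg B libraries (100 and 73.2) lie below the control A libraries (146 and 314).

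On chromosome 3, Gbp2, which coats bacteria and the vacuoles of Toxoplasma in mouse cells, had the highest level per kb of the 10 members. It had 145896 and 203423 normalized reads (A, then B, here and below) in CD90pos IFNg and 119928 and 219329 in CD90neg IFNg, against 374 and 1869 in CD90pos control and 853 and 954 in CD90neg control. All 4 IFNg libraries were above all 4 control libraries. Its log2 difference was 7.68 (SE 0.73, adjusted p = 0.0166, limma) in CD90pos and 7.49 (SE 0.73, adjusted p = 0.0214) in CD90neg cells.

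Gbp3, of the cluster whose loss leaves mice open to Toxoplasma, had 32043 and 25109 normalized reads in CD90pos IFNg and 27965 and 30698 in CD90neg IFNg, against 66.8 and 304 in CD90pos control and 174 and 294 in CD90neg control. The IFNg libraries lay close together while the CD90pos controls spread. Gbp3 rose by a log2 difference of 7.62 (SE 0.68, adjusted p = 0.0160, limma) in CD90pos and of 7.01 (SE 0.68, adjusted p = 0.0214) in CD90neg cells.

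Gbp7, linked in mouse macrophages to assembly of the NADPH oxidase, had 11932 and 13617 normalized reads in CD90pos IFNg and 11812 and 12698 in CD90neg IFNg, against 29.6 and 292 in CD90pos control and 83.4 and 225 in CD90neg control. The IFNg libraries were again alike, and the B controls were above the A controls. Its log2 difference was 7.07 (SE 1.03, adjusted p = 0.0325, limma) in CD90pos cells, where it rose, and 6.47 (SE 1.03, adjusted p = 0.0749) in CD90neg cells, where it was called with the letter as a block (adjusted p = 0.00372) and by DESeq2.

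Gbp5, which promotes inflammasome activation, had the lowest mean level per kb of the 10 members with IFNg. It had 1874 and 2398 normalized reads in CD90pos IFNg and 1205 and 2757 in CD90neg IFNg, against 2.19 and 16.8 in CD90pos control and 8.23 and 8.32 in CD90neg control. No control library had more than 15 reads of it. Gbp5 rose by a log2 difference of 8.14 (SE 0.84, adjusted p = 0.0171, limma) in CD90pos and of 7.62 (SE 0.84, adjusted p = 0.0260) in CD90neg cells.

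On chromosome 5, Gbp4 had the highest level per kb with IFNg. It had 67146 and 38356 normalized reads in CD90pos IFNg and 67624 and 40960 in CD90neg IFNg, against 31.7 and 0 in CD90pos control and 297 and 5.20 in CD90neg control. Within letter A the level was 2115-fold higher with IFNg in CD90pos and 227-fold higher in CD90neg cells, and within letter B at least 11393-fold higher in CD90pos (the control of 0 reads set at 3) and 7874-fold higher in CD90neg cells. Its log2 difference of 13.11 (SE 2.19, adjusted p = 0.0374, limma) was the largest of the members in CD90pos cells by limma. It was 11.87 with a pseudocount of 5, and by edgeR and DESeq2 it was 11.70, below Gbp10 (12.09 and 12.24). In CD90neg cells it was 10.26 (SE 2.19, adjusted p = 0.20), called with the letter as a block (adjusted p = 0.00612) and by DESeq2 (adjusted p = 0.00438).

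Gbp10 had 7872 and 2787 normalized reads in CD90pos IFNg and 6734 and 4054 in CD90neg IFNg, against 2.19 and 0 in CD90pos control and 21.6 and 0 in CD90neg control. Gbp6 had 6032 and 3865 in CD90pos IFNg and 5651 and 4443 in CD90neg IFNg, against 4.38 and 0 in CD90pos control and 31.9 and 5.20 in CD90neg control. Both are linked to killing of intracellular bacteria in mouse macrophages, and both were near or at 0 without IFNg. The log2 difference of Gbp10 was 11.36 (SE 1.48, adjusted p = 0.0295, limma) in CD90pos cells and 10.10 (SE 1.48, adjusted p = 0.0614) in CD90neg cells, where the adjusted p was 0.00122 once the letter was a block. Gbp6 rose by 11.02 (SE 1.03, adjusted p = 0.0163) in CD90pos and by 8.45 (SE 1.03, adjusted p = 0.0324) in CD90neg cells. Reads shared between these copies, as given above, limit how far they can be read apart.

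Gbp8 had 2965 and 1929 normalized reads in CD90pos IFNg and 2601 and 2483 in CD90neg IFNg, against 7.66 and 2.24 in CD90pos control and 11.3 and 1.04 in CD90neg control. It rose by a log2 difference of 8.82 (SE 0.91, adjusted p = 0.0171, limma) in CD90pos and of 8.99 (SE 0.91, adjusted p = 0.0214) in CD90neg cells. Gbp9 had 3524 and 5049 in CD90pos IFNg and 3911 and 5756 in CD90neg IFNg, against 77.7 and 58.4 in CD90pos control and 73.1 and 85.3 in CD90neg control. Its log2 difference was the smallest of the members and had the smallest standard error: 5.95 (SE 0.29, adjusted p = 0.00369) in CD90pos and 5.89 (SE 0.29, adjusted p = 0.00391) in CD90neg cells. Within a letter Gbp9 was 45.3-fold (A) and 86.5-fold (B) higher with IFNg in CD90pos cells and 53.5-fold (A) and 67.5-fold (B) higher in CD90neg cells.

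Gbp2b, formerly named Gbp1, acts against intracellular bacteria in mouse macrophages, and it set the letters apart. It had 55603 and 100 normalized reads in CD90pos IFNg and 43682 and 73.2 in CD90neg IFNg, against 146 and 0 in CD90pos control and 314 and 0 in CD90neg control. The libraries with the highest level were both IFNg A libraries, and both IFNg B libraries were below both control A libraries. For the other 9 members both IFNg libraries were above both control libraries in each population, an order found for 24.2% of all genes in CD90pos and 14.3% in CD90neg cells. The log2 difference of Gbp2b was 7.61 (SE 4.88, adjusted p = 0.426, limma) in CD90pos and 6.66 (SE 4.88, adjusted p = 1.0) in CD90neg cells. With the letter as a block it had an adjusted p of 0.000498 in CD90pos and of 0.000931 in CD90neg cells. Within letter A, Gbp2b was 382-fold higher with IFNg in CD90pos and 139-fold higher in CD90neg cells, and within letter B at least 29.7-fold and at least 23.5-fold higher, with the controls of 0 reads set at 3.

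**Figure D3:**
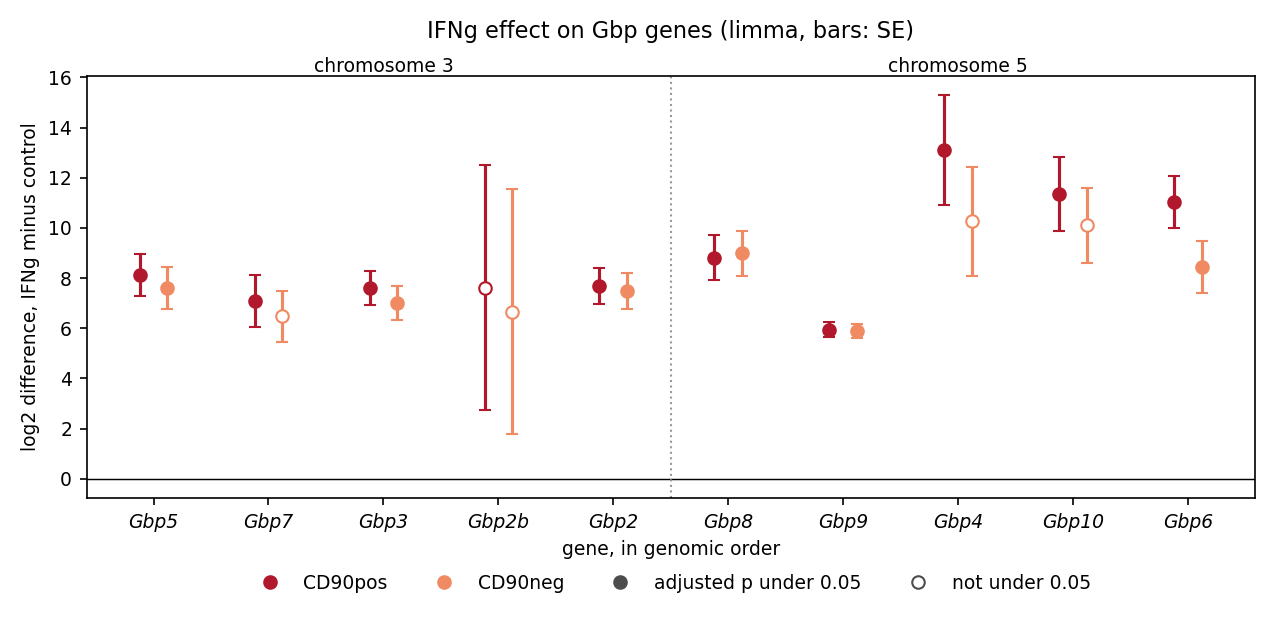
Log2 difference, IFNg minus control, of each Gbp gene in CD90pos (dark red) and CD90neg cells (orange), with the standard error from limma as bars; filled points have an adjusted p under 0.05. All differences are between 5.89 and 13.11, and the bars of Gbp2b are the widest (SE 4.88).

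The number of members called depended on single libraries when the letter was not in the fit, and so did that over all genes. In CD90pos cells it was 0 without the CD90pos IFNg B library, 1 (Gbp9) without any other IFNg library, and 5 to 8 without a control library (CD90pos control A 5, CD90pos control B 6, CD90neg control A 7 and CD90neg control B 8). In CD90neg cells it was 1 (Gbp9) without any of the 4 IFNg libraries, 2 when CD90neg control A and 1 when CD90neg control B was left out, and 7 without either CD90pos control. Over all genes, 2 to 19 were called in CD90pos cells without an IFNg library and 30 to 114 without a control library, and 3 to 12 in CD90neg cells, or 78 and 80 without CD90pos control A and B. In the blocked fit, 10 members were called in CD90pos cells whichever library was left out, and 9 or 10 in CD90neg cells (9 without CD90neg control A or B), where 460 to 4035 and 222 to 698 of all genes were called.

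Libraries lettered A were then set against those lettered B among the IFNg libraries, with treatment and letter in one fit and the population as a term, a comparison added after the values had been seen. In this fit the CD90pos and CD90neg libraries of a letter and treatment stand as its replicates. Its p-values, also those for the IFNg effect in A against B, therefore measure the spread between sorted populations. They do not measure the spread between separate samples of A or of B. Gbp2b was the only member called, 1 of 10, where 16.5% of all genes were called. Its level in A was 555 times that in B in CD90pos IFNg and 597 times in CD90neg IFNg. The log2 difference, A minus B, was 9.15 (SE 0.37, 95% interval 8.33 to 9.98, adjusted p = 4.87e-06, limma), and it ranks 4 of 12964 genes by size. DESeq2 also called Gbp9 (-0.54, adjusted p = 0.0384, and 0.115 by limma), where it called 2524 genes of all. The other 9 members lay between -0.77 (Gbp5, adjusted p = 0.384) and 1.11 (Gbp10, adjusted p = 0.290). The neighbouring Gbp2 went the other way, at -0.68 (SE 0.40, adjusted p = 0.321). Leukocyte markers also differed by letter, with Lyz2 at 621 and 784 normalized reads in IFNg A libraries and 11.2 and 24.7 in IFNg B libraries; their part in the Gbp2b difference was not tested.

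Without IFNg the letters differed in both directions. Gbp2b, as given above, and the chromosome 5 genes Gbp4, Gbp6, Gbp8 and Gbp10 were higher in A than in B in both control groups, for example Gbp4 with 297 in A and 5.20 in B of CD90neg control. In CD90pos control this order rests on few reads: 2 in A and 0 in B for Gbp10, 4 and 0 for Gbp6 and 7 and 2 for Gbp8. A count of 0 allows up to 3 reads, so the order of Gbp10 there is not settled. Gbp2, Gbp3 and Gbp7 on chromosome 3 were lower in A than in B in both control groups, for example Gbp7 with 29.6 in A and 292 in B of CD90pos control and 83.4 in A and 225 in B of CD90neg control. Gbp9 went either way, and Gbp5 was lower in A in CD90pos control (2.19 in A and 16.8 in B) and about equal in CD90neg control. With IFNg the difference between letters was smaller for Gbp3, Gbp4, Gbp6, Gbp7, Gbp8 and Gbp10 in both populations and for Gbp2 and Gbp5 in CD90pos cells. In CD90neg cells it was larger for Gbp2 (-0.87 with IFNg and -0.16 without it, log2 of A minus B with a pseudocount of 1). There it was also larger for Gbp5 (-1.19 and -0.01). For Gbp2b it was larger in CD90pos (9.10 with IFNg and 7.20 without it) and in CD90neg cells (9.20 and 8.30). For Gbp9 it was larger in size in CD90pos (-0.52 and 0.41) and in CD90neg cells (-0.56 and -0.22). The IFNg effect in A minus that in B was -4.55 (SE 0.97, adjusted p = 0.153, limma) for Gbp4, 2.19 (SE 0.52, adjusted p = 0.224) for Gbp7 and 1.57 (SE 0.46, adjusted p = 0.351) for Gbp3 on the log2 scale. No member was called, where 0.224% of all genes were, although 6 had an unadjusted p under 0.05; edgeR on the recovered reads called 0 and DESeq2 called 1, Gbp7.

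**Figure D4:**
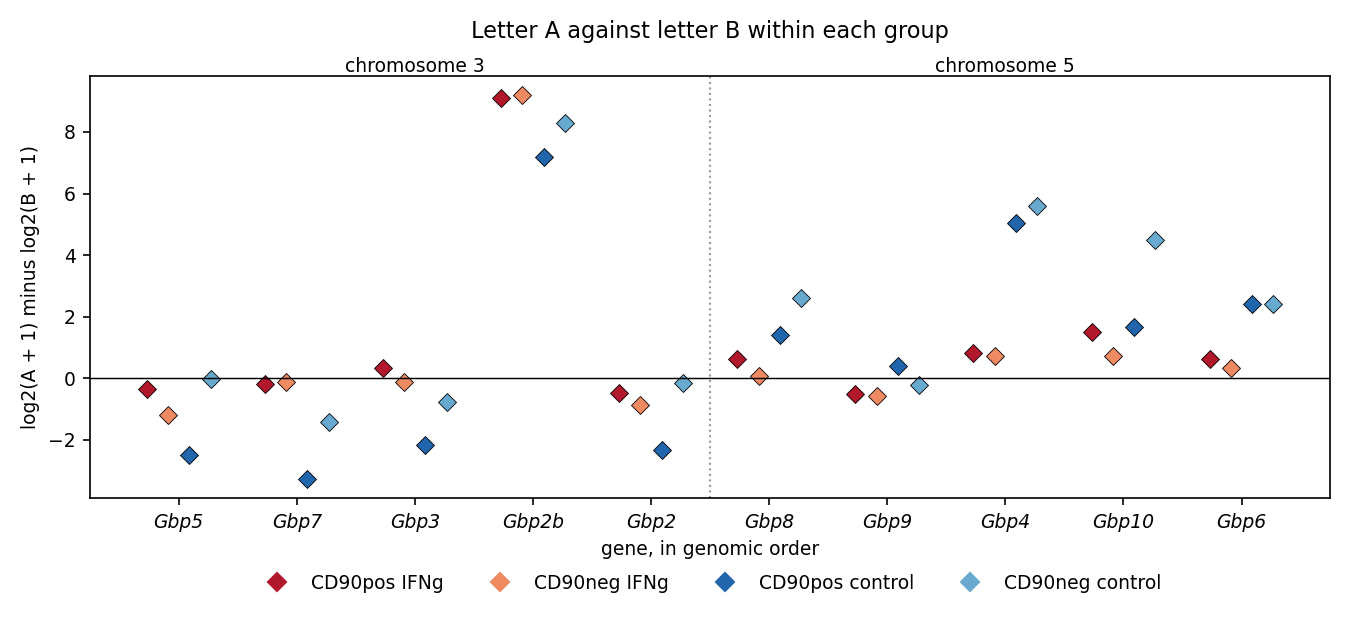
Log2(A + 1) minus log2(B + 1) of normalized reads for each Gbp gene within each of the 4 groups, so that points above 0 are higher in letter A. Gbp2b lies between 7.20 and 9.20 in each group, the other members between -1.19 and 1.5 in the IFNg groups.

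Levels can be compared between genes only per length, here as normalized reads per kb of exon. Gbp2 was highest in each group, at 69419 ± 16168 (SD, n = 2) in CD90pos IFNg and 67420 ± 27936 in CD90neg IFNg, against 446 ± 420 in CD90pos control and 359 ± 28.3 in CD90neg control, and its libraries did not overlap with those of the next gene. In CD90pos IFNg the order was Gbp2, Gbp2b, Gbp3, Gbp4, Gbp7, Gbp10, Gbp6, Gbp9, Gbp8 and Gbp5. Libraries of neighbours in this order overlapped between Gbp2b and Gbp3, between Gbp3 and Gbp4, and for each step between Gbp10 and Gbp8, while Gbp4 and Gbp7, Gbp7 and Gbp10, and Gbp8 and Gbp5 did not overlap. In CD90neg IFNg Gbp3 came before Gbp2b and Gbp9 before Gbp6, both within overlapping libraries. The order is that of means over both letters: in both IFNg B libraries Gbp2b was the lowest, at 35.5 in CD90pos and 25.9 in CD90neg cells. Gbp5 had the lowest mean with IFNg, at 322 ± 55.8 in CD90pos and 298 ± 165 in CD90neg cells. The places of Gbp10 and Gbp6 are uncertain, with and without IFNg. Of their exon bases, 46.3% and 29.0% lie in exons of Gm43302 too, so their levels per kb depend on how shared reads were counted.

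Without IFNg the per-kb order was Gbp2, Gbp3, Gbp7, Gbp2b, Gbp9, Gbp4, Gbp8, Gbp5, Gbp6 and Gbp10 in CD90pos control, and Gbp2, Gbp3, Gbp2b, Gbp7, Gbp4, Gbp9, Gbp6, Gbp10, Gbp8 and Gbp5 in CD90neg control. In CD90pos control libraries overlapped at every step but Gbp2 to Gbp3 and Gbp9 to Gbp4, and in CD90neg control at every step but Gbp2 to Gbp3 and Gbp9 to Gbp6. The make-up followed the letter. Gbp2b took 19.0% and 17.7% of the summed per-kb level in CD90pos and CD90neg IFNg of letter A, against 0.0357% and 0.0239% in letter B, and Gbp2 took 56.1% and 54.7% in letter A against 81.3% and 80.4% in letter B. Without IFNg Gbp2b took 20.7% and 18.9% in the CD90pos and CD90neg control of letter A and had no read in letter B.

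**Figure D5:**
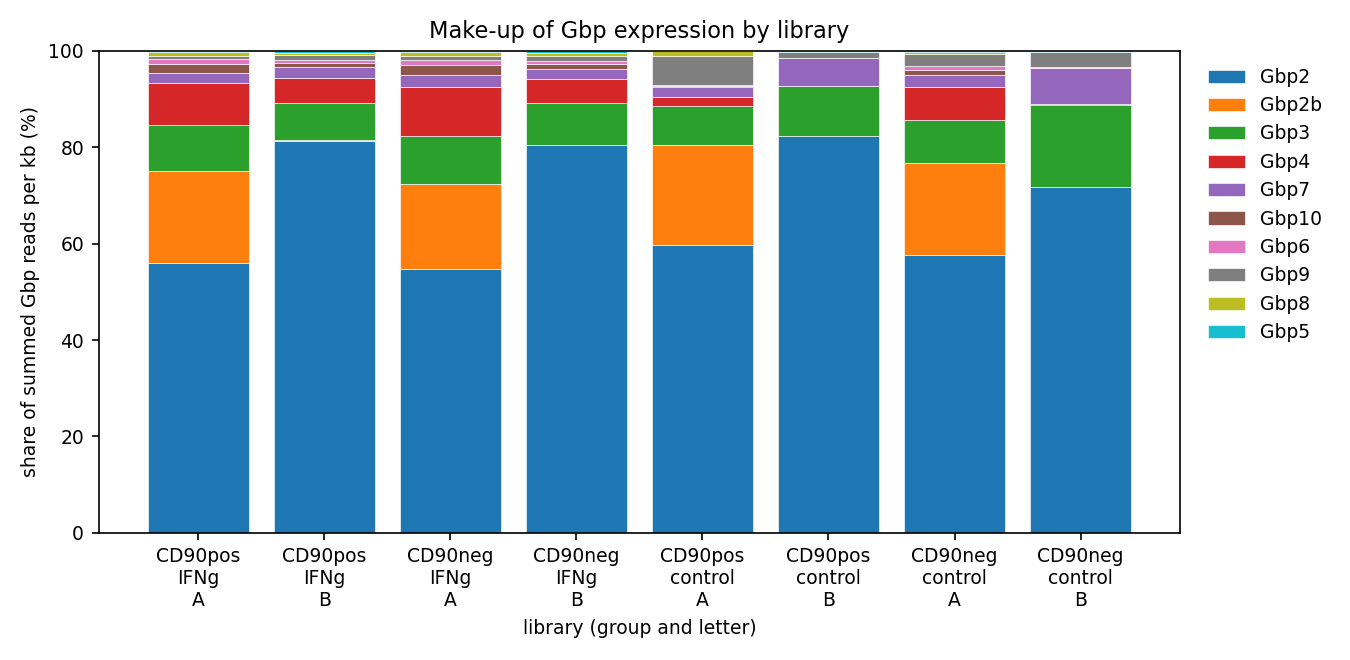
Share of each Gbp gene in the summed Gbp reads per kb (%) of each library, IFNg libraries on the left. Gbp2b (orange) takes 17.7% to 20.7% in the 4 letter A libraries and at most 0.0357% in the 4 letter B libraries.

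With IFNg, no difference in Gbp levels between CD90pos and CD90neg cells passed the test. The log2 difference, CD90pos minus CD90neg, lay between -0.17 (Gbp9, 95% interval -0.89 to 0.55, limma) and 0.40 (Gbp2b, -11.51 to 12.31), with a median of -0.05. None of the 10 members was called, and none had an unadjusted p under 0.05, by limma with or without the letter as a block, by edgeR or by DESeq2; 0% of all genes were called by limma. Intervals from the fit blocked by letter were -0.77 to 0.43 for Gbp9 and -0.75 to 1.54 for Gbp2b, and differences within these intervals cannot be told from 0 here.

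Without IFNg, 9 of 10 members were lower in CD90pos than in CD90neg cells by limma, with a median of -0.55 and Gbp8 as the exception at 0.08 on the log2 scale; by edgeR and by DESeq2 it was 7 of 10. None was called, where 0% of all genes were; 1 member, Gbp6, had an unadjusted p under 0.05, and edgeR on the recovered reads called 0. Gbp6 had 4 and 0 reads in CD90pos control and 31 and 5 reads in CD90neg control, a log2 difference of -2.62 (SE 1.03, adjusted p = 0.319, limma). With the letter as a block it had an adjusted p of 0.0377, where 11.2% of all genes were called, and it was the only member called by that fit. DESeq2 also called Gbp6 (adjusted p = 0.0411), while edgeR with the block called Gbp2b (adjusted p = 0.0386) and not Gbp6 (adjusted p = 0.0850). The blocked call of Gbp6 was mostly lost when a single library was left out, and the calls over all genes then also changed widely. Which member was called depended on the library left out. Gbp4, at -2.91 (SE 2.19, adjusted p = 0.641), and Gbp10, at -1.41 (SE 1.48, adjusted p = 0.776), were also lower in CD90pos control on average. These values rest on few reads, and the order in Gbp10 was not the same without the CD90neg control A library, where it was 0.84.

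The difference of the IFNg effect between populations, CD90pos minus CD90neg, ranged over the members from -0.17 (Gbp8) to 2.86 (Gbp4, SE 3.09, adjusted p = 1.0, limma), with a median of 0.61. No member was called, where 0% of all genes were, and 0 had an unadjusted p under 0.05; edgeR and DESeq2 also called 0. Gbp6 had 2.57 (95% interval -0.98 to 6.12, adjusted p = 0.892), and 0.68 to 4.46 with the letter as a block (adjusted p = 0.221). More members passed the threshold in CD90pos than in CD90neg cells, and this is not shown to be a difference between the populations.

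A list of 20 genes of IFNg signalling holds receptor chains, kinases and transcription factors, and also inhibitors and the MHC activators Ciita and Nlrc5. Of these 20 genes, 10 rose and 0 fell in CD90pos cells, and 5 rose and 0 fell in CD90neg cells. Their median log2 differences were 2.22 and 2.07. Of all genes, 2.11% rose and 2.11% fell in CD90pos, and 0.633% rose and 0.00771% fell in CD90neg cells. In the fit blocked by letter, 15 rose and 3 fell in CD90pos and 11 rose and 1 fell in CD90neg cells. In that fit 14% of all genes rose and 13.6% fell in CD90pos, and 3.48% rose and 0.663% fell in CD90neg cells. Batf2, a transcription factor of the AP-1 type, rose by 8.48 (adjusted p = 0.0166, limma) in CD90pos and by 8.14 (adjusted p = 0.0214) in CD90neg cells. Ciita, the activator of MHC class II genes, rose by 7.18 and 7.33, Nlrc5, that of MHC class I genes, by 5.71 and 5.47, and Socs1, an inhibitor of the Jak kinases, by 4.64 and 4.35. Socs3, another inhibitor of Jak signalling, rose by 3.27 in CD90pos and by 2.80 in CD90neg cells. Irf8 rose by 6.98 and Stat2 by 3.71 in CD90pos cells. In CD90neg cells Irf8 was at 6.08 (adjusted p = 0.0655, and 0.000998 in the fit blocked by letter) and Stat2 at 3.42 (adjusted p = 0.0977, and 0.00271 in the blocked fit).

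Irf1 had a log2 difference of 4.45 (adjusted p = 0.0344, limma) in CD90pos and of 4.52 (adjusted p = 0.0692) in CD90neg cells, where the adjusted p was 0.00177 with the letter as a block. The kinases and receptor chains passed the test in neither population: Jak1 was at 0.26 and -0.01, Jak2 at 0.48 and 0.42, Ifngr1 at -0.67 and -0.20 and Ifngr2 at -0.86 and -0.65 in CD90pos and CD90neg cells. In the fit blocked by letter, Jak2 (adjusted p = 0.0463), Ifngr1 (0.0154) and Ifngr2 (0.00377) passed in CD90pos and Ifngr2 (0.0217) in CD90neg cells.

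Of 24 tested genes listed as partners of the Gbp proteins in defence within the cell, 7 rose and 1 fell in CD90pos cells and 5 rose and 0 fell in CD90neg cells, with medians of 0.35 and 0.47. Over all genes 2.11% rose and 2.11% fell in CD90pos, and 0.633% rose and 0.00771% fell in CD90neg cells. Blocked by letter, 11 rose and 6 fell in CD90pos, where 14% and 13.6% of all genes did, and 11 rose and 0 fell in CD90neg cells, where 3.48% and 0.663% did. Nos2, the inducible nitric oxide synthase, rose by 11.91 (adjusted p = 0.0146, limma) in CD90pos and by 8.59 (adjusted p = 0.0263) in CD90neg cells. The immunity-related GTPases Igtp (7.72 and 7.19) and Irgm1 (4.68 and 5.12) rose in both populations, as did Ube2l6, an enzyme of ISG15 conjugation (4.75 and 4.98), and Casp1, the inflammasome protease (2.36 and 3.41). Irgm2, another GTPase of that family, rose by 6.23 in CD90pos cells and was at 6.23 in CD90neg cells (adjusted p = 0.0692, and 0.00508 in the blocked fit). Trim21, an antibody receptor of the cytosol, rose by 2.82 in CD90pos cells and was at 2.88 in CD90neg cells (adjusted p = 0.0979, and 0.000799 in the blocked fit). Atg5, of the autophagy machinery, fell by 0.67 in CD90pos cells (adjusted p = 0.0493).

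Some Gbp proteins, Gbp2, Gbp2b and Gbp5 among them, end in a CaaX motif to which a lipid is attached. Of 10 genes listed for this modification, 1 rose and 0 fell in CD90pos cells, Rap1gds1, a chaperone of prenylated small GTPases, at 0.81 (adjusted p = 0.0344, limma). In CD90neg cells 0 were called by limma or edgeR, with 1 at an unadjusted p under 0.05 and 1 called by DESeq2. Blocking by letter, 3 rose and 2 fell in CD90pos and 1, Rap1gds1 (0.50, adjusted p = 0.0413), rose in CD90neg cells, to be read against the shares of all genes just given. A list of 20 atlastins and other GTPases, most of them large, also holds the small GTPases Rab5a, Rab7 and Arf1. Of these 20 genes, limma and edgeR called 0 in either population. By limma 3 had an unadjusted p under 0.05 in CD90pos and 1 in CD90neg cells, as did 2969 and 729 of all 12962 genes. DESeq2 called 2 in CD90pos and 1 in CD90neg cells, and with the letter as a block 4 rose and 1 fell in CD90pos and 2 rose in CD90neg cells, where 14%, 13.6% and 3.48% of all genes did. Their medians were 0.05 and -0.05.

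The members' profiles across the 8 libraries followed their own mean (of standardized log2 values) with Pearson's r of 0.714 for Gbp2b and of 0.947 (Gbp7) to 0.993 (Gbp8) for the others. The non-members with the most similar profile were Gm12250 (r = 0.998), Gm5970 (0.996), Sectm1b (0.996), Tap1 (0.996), the peptide transporter of MHC class I, and Iigp1 (0.995), an immunity-related GTPase. These are descriptions over 8 libraries that share treatment and letter. Iigp1 had 101854 and 67929 normalized reads in CD90pos IFNg and 91071 and 70339 in CD90neg IFNg, against 39.4 and 58.4 in CD90pos control and 398 and 34.3 in CD90neg control. Tap1 had 17644 and 16492 in CD90pos IFNg and 17624 and 16926 in CD90neg IFNg, against 893 and 825 in CD90pos control and 1006 and 744 in CD90neg control, and its libraries were close within each group.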

How the data were processed

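The values used are normalized read signal per gene, deposited by the authors in 1 table of all genes; per the submitters' processing notes STAR and HTSeq were used with mm10 (GRCm38), with no versions given, and libraries were made from sorted cells by a stranded mRNA method, per the labels' protocols. No row has a maximum under 43.4 normalized reads, so genes without a row were not analysed here. In each library 100% of values were whole multiples (tolerance 0.001) of 1 step, 0.851 to 1.12, which gave whole reads. Read length: not given in the sources.

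Genes with at least 10 normalized reads in at least 2 libraries were kept (12962 of 12964; all 10 members passed). The main test was limma 3.58.1 (R 4.3.3) on log2 of the deposited value + 1, with 4 group means over all 8 libraries, a mean-variance trend and Benjamini-Hochberg adjustment over all genes. The added 1 lowers a fold change against a low control, but the log2 difference of a low gene was not always below that by edgeR. Gbp4 in CD90neg cells was at 10.26 by limma and 8.52 by edgeR, and Gbp10 in CD90pos cells at 11.36 by limma and 12.09 by edgeR. Alternatives were pseudocounts of 0.5 and 5, no filter, the letter as a block, quantile normalization, median centring, edgeR 4.0.16 and DESeq2 1.42.0 on recovered reads, and each library left out. The letters pair the libraries: deviations of A from B correlated between groups, r = 0.779 to 0.920 over 6 pairs of groups. Block values are given beside the named genes whose call they change. Only the limma fit without a block was tested on simulated data, for the IFNg effect in CD90pos cells. The simulated data held no difference between letters.

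The text names all members; of 4 lists, at most 8 called genes per list and comparison, largest first, with Irf1, Jak1, Jak2, Ifngr1 and Ifngr2; the 5 non-members nearest in profile; and Thy1. 1 gene that this rule names is not reported here. The members and lists were chosen with earlier results of these data known. Promoter letters were searched in the RefSeq windows of GRCm38.p6, and exon models were those of GENCODE vM21, in which the IDs of all members were found.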

Additional observations from a re-analysis of the deposited data

How the results depend on the processing

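The letter as a replicate block moved the number of members called to 10 in CD90neg IFNg against control (6 without it), also by edgeR with the replicate block (10), and to 1 in CD90pos against CD90neg control (Gbp6; 0 without it), where DESeq2 called 1, also Gbp6, and edgeR with the block called 1, but Gbp2b. Over all genes the block moved the calls from 546 to 3578 in CD90pos, from 83 to 537 in CD90neg and from 0 to 1451 between the control populations. DESeq2 called 2042, 367 and 987 genes in these comparisons and 182 in the interaction, where limma called 0. Of the calls in CD90pos cells 50% were higher with IFNg, and 40.1% after quantile normalization.

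For letter A against B with IFNg DESeq2 called 2 members (1 by limma), where it called 2524 genes of all and limma 2143. For the IFNg effect in A against B a pseudocount of 5 gave 1 and DESeq2 gave 1 (0 by limma). There the pseudocount of 5 called 32 genes of all, DESeq2 154 and limma 29. Leaving out 1 library gave 0 to 8 members called in CD90pos, 1 to 7 in CD90neg, 1 to 2 for A against B with IFNg and 0 to 3 for the IFNg effect in A against B. Leaving out a library leaves its group with 1 library, which is assumed to vary like the others.

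Among the differences followed through all alternatives, the direction turned only in small or uncalled ones, on the log2 scale. Other uncalled members turned as well. Between control populations Gbp2, Gbp5 and Gbp7 were 0.320, 0.198 and 0.0657 by edgeR, against -0.109, -0.299 and -0.545 by limma. In the interaction these genes were -0.281, -0.0934 and -0.00834 by edgeR, against 0.196, 0.517 and 0.603 by limma. Gbp8 between control populations was -0.052 with a pseudocount of 5, -0.304 by edgeR, -0.296 by edgeR with the block and -0.317 by DESeq2, and in the interaction 0.244, 0.191 and 0.262 by the same tools. The IFNg effect on Gbp2b in A against B was -1.67 by edgeR and -0.995 by DESeq2, and Jak1 in CD90neg cells was 0.00998 by edgeR and 0.0139 with the block. With 1 library left out, the values spanned -0.193 to 0.00171 for Atg5, -0.124 to 0.107 for Jak1 and -0.441 to 0.0373 for Ifngr1 in CD90neg cells, -3.66 to 0.837 for Gbp10 and -1.22 to 1.38 for Gbp8 between control populations, -0.448 to 0.109 for Gbp9 and -4.20 to 5.00 for Gbp2b between IFNg populations, -1.47 to 1.13 for Gbp8 in the interaction, and -0.215 to 1.75 for Gbp4 in A against B with IFNg. The cause was not tested. Low control counts limit the folds of Gbp4, Gbp6, Gbp8 and Gbp10.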

Other observations

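Gbp11, annotated as a polymorphic pseudogene at chr5:105323042-105346472 (GRCm38, minus strand) and not among the 10 members, had 262 and 38.8 normalized reads (A, then B) in CD90pos IFNg and 171 and 60.4 in CD90neg IFNg, and no read in any control library. Its log2 difference by limma was 6.68 in CD90pos (SE 1.32, adjusted p = 0.0519) and 6.68 in CD90neg cells (SE 1.32, adjusted p = 0.153), and with the letter as a block the adjusted p was 0.00377 and 0.00683. Of the 50-base words in its exons, 19.2% also occur in another gene, most of all in Gbp8. The gene was chosen after its values were seen.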
